A study of Mus musculus with 28 samples.

Results

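Complex I (NADH:ubiquinone oxidoreductase) and the ATP synthase are the first and last machines of mitochondrial respiration, and most of their subunits are encoded in the nucleus. The genes described here are the 62 rows of the count table, of 49492 in all, whose symbols are Nduf or Atp5 names, pseudogenes left out. They comprise 36 complex I subunits, 8 complex I assembly factors, 15 ATP synthase subunits, Ndufa4, which is named for complex I and is known to sit in complex IV, and the ATP synthase-named genes Atp5s and Atp5sl. The members were chosen by symbol, with earlier results of these data known, and all 62 passed the filter on low counts.

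The RNA came from gastric corpus epithelial cells scraped by hand from villin-PPARD mice and from their wild-type (WT) littermates. Transgenic mice were sampled at 10 weeks (n = 5), 25 weeks (n = 4) and 55 weeks (n = 5), and WT littermates at the same ages with the same numbers, so that 28 libraries stand for 28 mice. The transgene encodes the nuclear receptor PPARD under the villin promoter, best known for activity in intestinal epithelium. Which cells of the corpus express the transgene is not given in the sources used here, and neither are the strain and sex.

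Complex I takes electrons from NADH in its matrix arm, passes them along iron-sulfur clusters to ubiquinone, and pumps protons through its membrane arm. The ATP synthase lets the protons flow back through a ring of c subunits in its membrane part, which turns a central stalk inside the catalytic head and so drives the making of ATP. In the gastric corpus the acid-secreting parietal cells are packed with mitochondria, because the proton pump of their canaliculi, the H+/K+-ATPase made by Atp4a and Atp4b, runs on ATP. Promoters of respiratory chain genes are known for sites of several factors, among them YY1, ETS factors such as GABP, and the estrogen-related receptors (ERR).

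Promoters are shown because most members differed in the same direction. RefSeq (GRCm38.p6) gave a promoter of 300 bases, from 250 before to 50 after the gene's start, for 56 of the 62 members. The ERR letters AAGGTCA, searched on both strands, stood in 7 of the 56 promoters (12.5%), against 5.38% of all 27025 genes of the promoter table and 4.08% of those that passed the count filter. Each stretch of 30 bases below holds such a match, in capitals, and is read on the strand that carries the letters.
Ndufb2, chr6:39592373-39592402, plus strand: ggagcagcagtAAGGTCAgccaagagcacc
Ndufb4, chr16:37654405-37654434, minus strand: tcctgagcctgAAGGTCAgactcgagaggg
Ndufs5, chr4:123718396-123718425, plus strand: tgctacttgagcAAGGTCAcactcgagaaa
Atp5e, chr2:174464059-174464088, plus strand: cccggcagcaggAAGGTCAggcctgagtag
Atp5k, chr5:108434358-108434387, minus strand: cttccggcgcgAAGGTCAcggacaaaatgg
Atp5l, chr9:44920737-44920766, plus strand: ttccccatttccAAGGTCAggctgcccctc
Atp5g3, chr2:73911360-73911389, plus strand: gggaagacgctcAAGGTCActttgtaacaa

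By the starts in the RefSeq table, the stretches of Atp5e and Atp5k lie after the gene's start and the other 5 before it; GENCODE gene starts differ for some of these genes. All 7 of these genes were called lower in transgenic mice at all 3 ages, as were 41 of the 56 members with a promoter entry, and none of the other 15 promoters held the letters. The 10-week call of Atp5e was lost with library size alone as the scaling, and when some single libraries of 10 weeks were left out. With library size alone the 55-week calls of Atp5e, Atp5g3 and Ndufb4 were lost too. Whether the letters go with the calls was not tested. The YY1 letters AANATGGC stood in 19 promoters (33.9%), against 6.96% of all genes and 9.27% of genes that passed the count filter. They were in 12 of the 41 members lower at all 3 ages and in 7 of the other 15. The ETS letters CCGGAAG stood in 11 promoters (19.6%), against 9.93% of all genes and 18.4% of genes that passed the count filter, and in 8 of the 41 and 3 of the 15. The 3 motifs were searched on both strands, and 25 of the 56 promoters held none of them. A match describes these letters only.

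The c subunit of the ATP synthase is made from 3 genes, Atp5g1, Atp5g2 and Atp5g3, whose shares of their summed level differed between transgenic and WT mice at 55 weeks for Atp5g1 and Atp5g2, without overlap. The bases before the start of Atp5g1 are shown for that reason, and those of Atp5g3 beside them. The ERR letters are in capitals (on the other strand, as TGACCTT). The Atp5g3 share overlapped at 55 weeks (53.5% to 58.9% in transgenic and 51.05% to 57.7% in WT mice). The stretch of Atp5g1 held none of the 3 motifs, and neither did the promoter of Atp5g2, which is not shown.
Atp5g1, 111 bases before the start, chr11:96075671-96075781, minus strand: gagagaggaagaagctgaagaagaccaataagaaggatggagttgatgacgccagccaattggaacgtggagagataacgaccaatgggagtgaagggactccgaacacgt
Atp5g3, 150 bases before the start, chr2:73911327-73911476, minus strand: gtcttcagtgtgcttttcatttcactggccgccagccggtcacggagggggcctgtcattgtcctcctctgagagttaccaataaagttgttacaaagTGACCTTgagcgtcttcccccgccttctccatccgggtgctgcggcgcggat

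Each library held between 10982888 and 30891108 counts, of which the members took 0.518% in transgenic and 0.642% in WT mice at 10 weeks, and 0.491% in transgenic and 0.605% in WT mice at 25 weeks. At 55 weeks the members took 0.517% in transgenic mice (0.488% to 0.540%) and 0.538% in WT mice (0.454% to 0.605%), so that these shares of all counts, taken without TMM scaling, overlapped. Levels are given as CPM, counts scaled to library sizes multiplied by their TMM factors. At 55 weeks these factors lay between 1.19 and 1.392 in transgenic and between 0.9048 and 1.031 in WT libraries. The CPM values below, and statements on whether they overlap between groups, therefore rest on TMM scaling. The Ppard row, the check of the labels, stood at 109.5 ± 9.56 CPM in transgenic and 74.1 ± 8.18 CPM in wild-type mice at 10 weeks (SD). Its log2 differences at the 3 ages were 0.56, 0.31 and 0.23 (adjusted p = 2.55e-05, 0.0183 and 0.0307, edgeR's quasi-likelihood test, Benjamini-Hochberg adjusted). Transgenic replicate 3 of 25 weeks stood apart from its group, with a summed level of the 62 members of 5798 CPM against 4263 to 4820 in the other 3, as did WT replicate 1 of 25 weeks, with 7777 against 6150 to 6554. Of the corpus markers, none of 19 parietal cell genes was at 0 in any group. Values of marker lists of corpus and other cells are given after the members.

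Most members were lower in transgenic mice at each age. Of the 62, 52 were called lower at 10 weeks, 52 at 25 weeks and 52 at 55 weeks, and 0 were called higher (edgeR's quasi-likelihood test, Benjamini-Hochberg adjusted over 15812 genes, adjusted p under 0.05). Among all genes tested, 16.2% were called lower and 17.9% higher at 10 weeks (34.0% in all), 18.6% lower and 21% higher at 25 weeks (39.6% in all), and 27.6% lower and 31.7% higher at 55 weeks (59.3% in all). The median log2 difference of the members, transgenic minus WT, was -0.42, -0.57 and -0.52 at 10, 25 and 55 weeks, against -0.03, -0.01 and 0.03 over all genes tested. With library size alone in place of trimmed-mean (TMM) scaling, the median of all genes at 55 weeks moved to 0.43 and that of the members to -0.12, and 18 members were called lower and 5 higher, while the distance between the medians was -0.55 against -0.54. At 25 weeks the same scaling gave 39 members lower and 0 higher. Differences below are therefore differences relative to the bulk of the transcripts.

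Every transgenic library lay below every WT library for 44 members at 10 weeks, 37 at 25 weeks and 44 at 55 weeks, against 11.1%, 12.4% and 19.4% of all genes tested. No member had its transgenic libraries all above the WT libraries. The call was made at all 3 ages for 45 members, at 2 ages for 8 and at 1 age for 5. The 4 members called at no age were the catalytic subunit gene Atp5b, the complex I subunit gene Ndufs4 and the assembly factor genes Ndufaf6 and Ndufaf7.

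**Figure D1:**
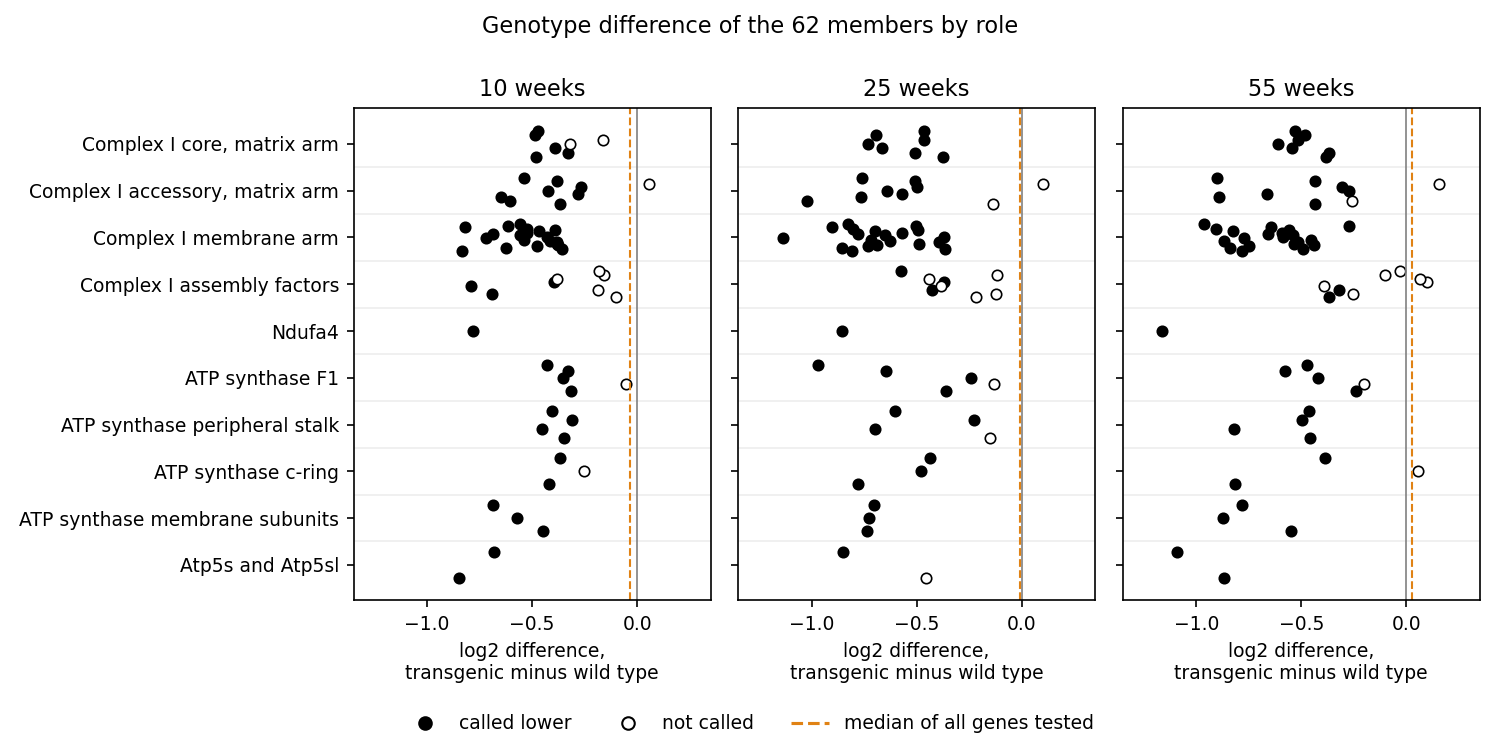
Log2 difference of each of the 62 members, transgenic minus wild type, at 10, 25 and 55 weeks, in a row for each role. Filled points were called lower, open points were not called, and the dashed line is the median of all genes tested. The membrane arm of complex I is filled in all 20 members at each age (9 of the 20 at 55 weeks with library size alone), while the assembly factors hold most of the open points. With library size alone the median of all genes at 55 weeks lay at 0.43.

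Summed over the 36 complex I subunits, the level was 1952 ± 72.3 CPM in transgenic and 2644 ± 169 CPM in WT mice at 10 weeks (SD, n = 5 each), 26.2% lower. At 25 weeks it was 1740 ± 276 CPM in transgenic and 2610 ± 319 CPM in WT mice (n = 4 each), 33.3% lower. At 55 weeks it was 1450 ± 87.9 CPM in transgenic and 2123 ± 188 CPM in WT mice (n = 5 each), 31.7% lower. With TMM scaling the transgenic libraries did not overlap the WT libraries at any age. The highest transgenic sum at 25 weeks, 2140 CPM, lay under the lowest WT sum, 2388 CPM. The 15 ATP synthase subunits summed to 3325 ± 131 CPM in transgenic and 4029 ± 416 CPM in WT mice at 10 weeks, 17.5% lower. Their sum was 2938 ± 378 CPM in transgenic and 3806 ± 417 CPM in WT mice at 25 weeks, 22.8% lower. At 55 weeks it was 2504 ± 227 CPM in transgenic and 3241 ± 221 CPM in WT mice, 22.7% lower. The sums of both enzymes rest on TMM scaling. The members' shares of all counts, taken without it, overlapped between the genotypes at 25 and 55 weeks. At 55 weeks those shares lay between 0.488% and 0.540% in transgenic and between 0.454% and 0.605% in WT mice. In these bulk libraries fewer cells of a type and less RNA per cell cannot be told apart.

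**Figure D2:**
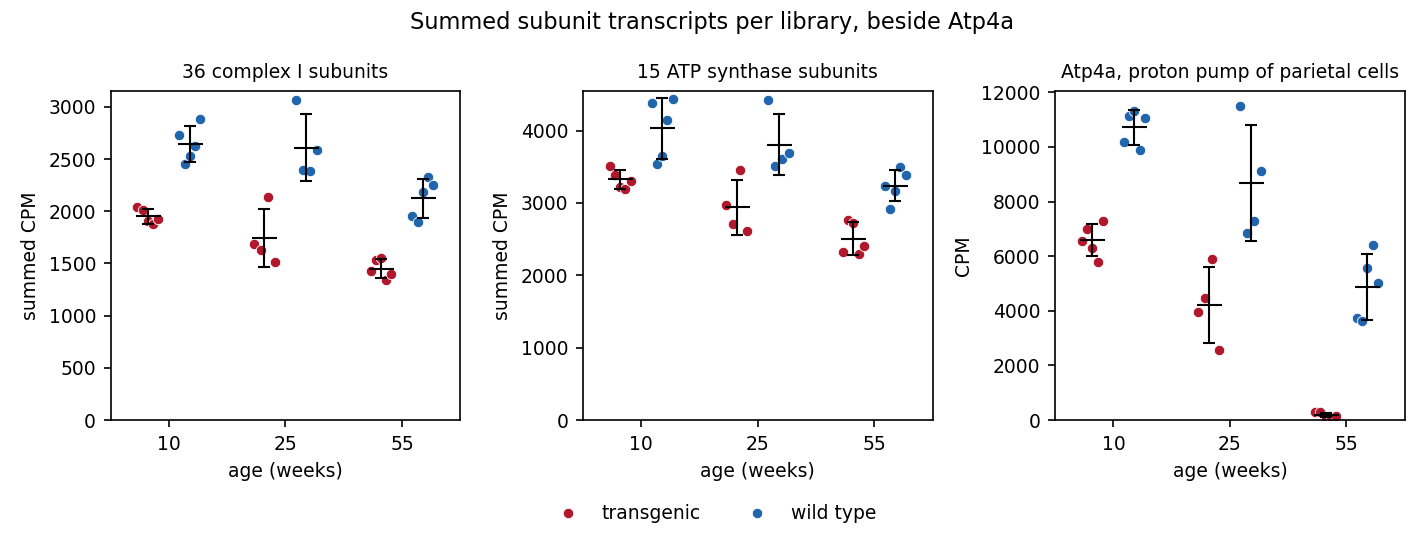
Summed CPM of the 36 complex I subunits and of the 15 ATP synthase subunits, and CPM of the parietal cell pump gene Atp4a, in each of the 28 libraries by age. Each point is a library, transgenic left of wild type, and bars are mean ± SD. With TMM scaling complex I sums did not overlap between the genotypes, and Atp4a was near 0 on this axis in transgenic mice at 55 weeks. The members' shares of all counts, taken without that scaling, overlapped at 25 and 55 weeks.

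The core of the matrix arm, the 7 subunits that carry the electrons, was lower as a group: 5, 7 and 7 of the 7 were called lower at 10, 25 and 55 weeks, with medians of -0.39, -0.51 and -0.51 on the log2 scale. Of these 7, 5, 4 and 0 were called lower with library size alone. Ndufv1, which binds NADH and the flavin that accepts its electrons, counted 86.5, 87.4, 74.6, 71.9 and 72.04 CPM in the transgenic libraries, against 124, 97.5, 103, 100.1 and 124 CPM in the wild-type libraries at 10 weeks. At 25 weeks Ndufv1 counted 60.9, 57.04, 80.9 and 57.4 CPM in the transgenic libraries, against 128, 84.6, 97.7 and 104 CPM in the wild-type libraries. At 55 weeks Ndufv1 counted 59.96, 65.6, 63.8, 56.3 and 54.1 CPM in the transgenic libraries, against 76.1, 70.2, 91.7, 89.3 and 91.2 CPM in the wild-type libraries. The transgenic libraries lay below all WT libraries at each age, and the log2 differences were -0.48, -0.69 and -0.48 (SE 0.11, 0.13 and 0.11, adjusted p = 0.00153, 1.07e-04 and 5.74e-04, edgeR quasi-likelihood test). Transgenic replicate 3 of 25 weeks stood above the other 3 libraries of its group for Ndufv1.

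Ndufs1 is the largest core subunit and holds several iron-sulfur clusters. It counted 79.4, 82.5, 84.5, 79.3 and 91.7 CPM in the transgenic libraries, against 126, 109.6, 105, 121 and 122 CPM in the wild-type libraries at 10 weeks. At 25 weeks Ndufs1 counted 81.2, 86.3, 95.2 and 65.3 CPM in the transgenic libraries, against 111, 109, 100.3 and 105 CPM in the wild-type libraries. At 55 weeks Ndufs1 counted 59.5, 65.04, 68.99, 59.3 and 65.5 CPM in the transgenic libraries, against 89.8, 79.8, 78.8, 89.95 and 76.05 CPM in the wild-type libraries. No transgenic library reached the lowest WT library at any age, and Ndufs1 differed by -0.48, -0.38 and -0.38 (SE 0.09, 0.10 and 0.09, adjusted p = 7.46e-05, 0.00265 and 3.41e-04, edgeR quasi-likelihood test), although with library size alone the 55-week value was 0.02.

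Ndufs7 and Ndufs8, which hold the last iron-sulfur clusters before ubiquinone, were the core genes not called at 10 weeks. Ndufs8 counted 70.2, 70.8, 58.8, 61.5 and 57.3 CPM in the transgenic libraries, against 71.9, 62.2, 66.6, 68.99 and 87.1 CPM in the wild-type libraries at that age, and the groups overlapped (-0.16, adjusted p = 0.276, edgeR). Ndufs8 counted 54.4, 48.3, 64.5 and 46.2 CPM in the transgenic libraries, against 94.3, 62.8, 67.2 and 70.7 CPM in the wild-type libraries at 25 weeks, with 1 transgenic library inside the WT range (-0.47, adjusted p = 0.00455, edgeR). At 55 weeks Ndufs8 counted 39.4, 47.98, 48.6, 43.6 and 40.5 CPM in the transgenic libraries, against 64.2, 52.9, 62.2, 72.2 and 62.5 CPM in the wild-type libraries, without overlap (-0.51, adjusted p = 2.7e-04, edgeR). Whether the Ndufs8 difference itself changed between ages did not pass the test. Ndufs7 counted 69.7, 66.7, 56.1, 56.2 and 62.7 CPM in the transgenic libraries, against 84.6, 70.1, 78.2, 68.6 and 87.4 CPM in the wild-type libraries at 10 weeks, where the groups overlapped (-0.32, adjusted p = 0.0847, edgeR). At 25 weeks Ndufs7 counted 39.1, 36.6, 71.2 and 40.4 CPM in the transgenic libraries, against 90.8, 58.6, 76.5 and 85.4 CPM in the wild-type libraries, and transgenic replicate 3 lay within the WT range while the other 3 lay below it. At 55 weeks Ndufs7 counted 45.4, 48.3, 46.5, 40.3 and 39.4 CPM in the transgenic libraries, against 56.1, 55.1, 73.5, 76.2 and 74.7 CPM in the wild-type libraries, and the genotypes did not overlap. Without transgenic replicate 3 of 25 weeks, and with only the groups compared, the 10-week call of Ndufs7 was made. The Ndufs7 differences were -0.73 at 25 weeks and -0.61 at 55 weeks (SE 0.16 and 0.14, adjusted p = 7.78e-04 and 5.99e-04, edgeR). The core genes Ndufs3 and Ndufv2 were called lower at all 3 ages, between -0.39 and -0.67.

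Of the 9 accessory subunits of the matrix arm, 8, 7 and 7 were called lower at 10, 25 and 55 weeks (medians -0.38, -0.57 and -0.44). With library size alone 6, 7 and 3 of the 9 were. Ndufa5, a small accessory subunit of the matrix arm (chr6:24518666-24528013, GRCm38), was among the 3 members with the lowest adjusted p at 25 and 55 weeks. It counted 26.98, 26.6, 30.1, 25.6 and 26.8 CPM in the transgenic libraries, against 43.3, 40.5, 43.7, 43.2 and 42.6 CPM in the wild-type libraries at 10 weeks. Ndufa5 counted 25.9, 24.5, 35.4 and 22.9 CPM in the transgenic libraries, against 50.5, 49.7, 43.1 and 42.2 CPM in the wild-type libraries at 25 weeks and, at 55 weeks, 21.8, 19.2, 19.9, 19.9 and 18.8 CPM in the transgenic libraries, against 35.3, 34.96, 37.8, 37.6 and 39.4 CPM in the wild-type libraries. The lowest WT library stood above the highest transgenic library at every age, and the Ndufa5 differences were -0.65, -0.77 and -0.89 (SE 0.09, 0.10 and 0.09, adjusted p = 1.76e-06, 8.36e-07 and 8.17e-10, edgeR quasi-likelihood test).

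Ndufv3, an accessory subunit bound near the NADH site, counted 57.7, 53.9, 51.8, 47.9 and 45.7 CPM in the transgenic libraries, against 74.05, 69.2, 69.5, 73.4 and 86.9 CPM in the wild-type libraries at 10 weeks. At 25 weeks Ndufv3 counted 43.9, 41.8, 53.8 and 43.1 CPM in the transgenic libraries, against 94.4, 72.4, 72.8 and 70.1 CPM in the wild-type libraries. At 55 weeks Ndufv3 counted 35.4, 36.2, 35.8, 32.7 and 31.3 CPM in the transgenic libraries, against 59.5, 62.3, 60.3, 70.1 and 67.4 CPM in the wild-type libraries. The groups did not overlap at any age, and the differences were -0.54, -0.76 and -0.90 (SE 0.09, 0.10 and 0.09, adjusted p = 5.15e-05, 1.73e-06 and 1.55e-09, edgeR). Ndufa6, which holds the mitochondrial acyl carrier protein on the matrix arm, differed by -0.28, -0.57 and -0.66 (adjusted p = 0.0442, 5.71e-04 and 5.91e-06, edgeR) and overlapped at 10 weeks only. The 10-week call of Ndufa6 was lost with library size alone, no filter, the replicate block or library group as a term, with replicates 4 and 5 of that age left out or alone, and without transgenic replicate 2, 3 or 5 or WT replicate 1, 4 or 5 of 10 weeks or transgenic replicate 1 of 55 weeks.

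Ndufs4, whose loss in mice gives a Leigh-like brain disease, is described because it was the only one of the 36 complex I subunits called at no age; it was picked after its values were seen. Ndufs4 counted 59.9, 56.8, 45.9, 60.8 and 59.98 CPM in the transgenic libraries, against 51.4, 49.2, 51.8, 56.9 and 63.7 CPM in the wild-type libraries at 10 weeks. At 25 weeks Ndufs4 counted 66.5, 58.98, 49.7 and 58.7 CPM in the transgenic libraries, against 62.8, 54.1, 48.1 and 53.4 CPM in the wild-type libraries. At 55 weeks Ndufs4 counted 53.5, 62.99, 62.95, 49.6 and 53.4 CPM in the transgenic libraries, against 50.5, 41.2, 54.5, 52.9 and 54.3 CPM in the wild-type libraries. The genotypes overlapped at each age, and the differences were 0.05, 0.10 and 0.16 (SE 0.10, 0.11 and 0.10, adjusted p = 0.715, 0.511 and 0.19, edgeR). Ndufs6, another accessory subunit of the matrix arm, was called lower at all 3 ages at -0.38, -0.51 and -0.44. Ndufa12 was not called at 25 weeks (-0.14, adjusted p = 0.355, edgeR), nor Ndufa2 at 55 weeks.

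The membrane arm pumps the protons, and the members include 20 of its nuclear-encoded accessory subunits. All 20 were called lower at each age, with medians of -0.53, -0.69 and -0.62, while with library size alone 20, 17 and 9 were. Ndufa1, a small subunit with a single membrane helix, encoded on the X chromosome at chrX:37187588-37191163 (GRCm38), had the lowest adjusted p of all members at 10 and 25 weeks. At 10 weeks Ndufa1 counted 30.8, 30.8, 24.5, 28.7 and 27.9 CPM in the transgenic libraries, against 50.7, 49.2, 47.9, 50.2 and 55.9 CPM in the wild-type libraries. At 25 weeks Ndufa1 counted 29.1, 31.5, 30.7 and 24.3 CPM in the transgenic libraries, against 56.5, 53.9, 40.99 and 51.9 CPM in the wild-type libraries. At 55 weeks Ndufa1 counted 24.6, 23.97, 23.9, 21.98 and 24.5 CPM in the transgenic libraries, against 34.98, 39.03, 43.6, 45.7 and 41.4 CPM in the wild-type libraries. With TMM scaling a gap separated the genotypes at each age. Ndufa1 differed by -0.83, -0.81 and -0.78 (SE 0.09, 0.10 and 0.09, adjusted p = 3.55e-08, 5.11e-07 and 1.64e-08, edgeR quasi-likelihood test). The fall was of 43.8% at 10 weeks and 41.8% at 55 weeks.

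Ndufb9, which binds an acyl carrier protein in the membrane arm, counted 129.9, 124, 116, 121 and 121 CPM in the transgenic libraries, against 171, 168, 175, 175 and 192 CPM in the wild-type libraries at 10 weeks. At 55 weeks Ndufb9 counted 67.1, 74.2, 75.2, 61.4 and 69.4 CPM in the transgenic libraries, against 116, 111, 142, 145 and 137 CPM in the wild-type libraries. Both ages were without overlap, and the differences were -0.52, -0.80 and -0.91 at the 3 ages (adjusted p = 2.42e-04, 3.96e-06 and 1.01e-08, edgeR). Exons of Ndufb9 overlap those of Gm49356 over 19.5% of their length. Ndufb10 counted 57.2, 55.6, 48.8, 47.9 and 49.9 CPM in the transgenic libraries, against 69.2, 60.1, 56.2, 75.8 and 84.7 CPM in the wild-type libraries at 10 weeks, where the ranges overlapped. At 55 weeks Ndufb10 counted 30.2, 37.2, 38.1, 32.5 and 36.1 CPM in the transgenic libraries, against 62.3, 64.2, 61.7, 67.1 and 62.3 CPM in the wild-type libraries, and all transgenic libraries lay far below the WT libraries (-0.87, SE 0.11, adjusted p = 1.22e-07, edgeR). Ndufb2 had the lowest difference of any member at 25 weeks, -1.13 (adjusted p = 5.35e-06, edgeR). Ndufs5, at -0.56, -0.83 and -0.96, and Ndufa13, also studied in human cells under the name GRIM19, at -0.48, -0.73 and -0.75, were lower at each age. Ndufab1, the acyl carrier protein itself, stood at -0.38, -0.39 and -0.52. The smallest membrane-arm differences called were -0.36 for Ndufa10 at 10 and 25 weeks and -0.27 for Ndufc2 at 55 weeks.

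**Figure D3:**
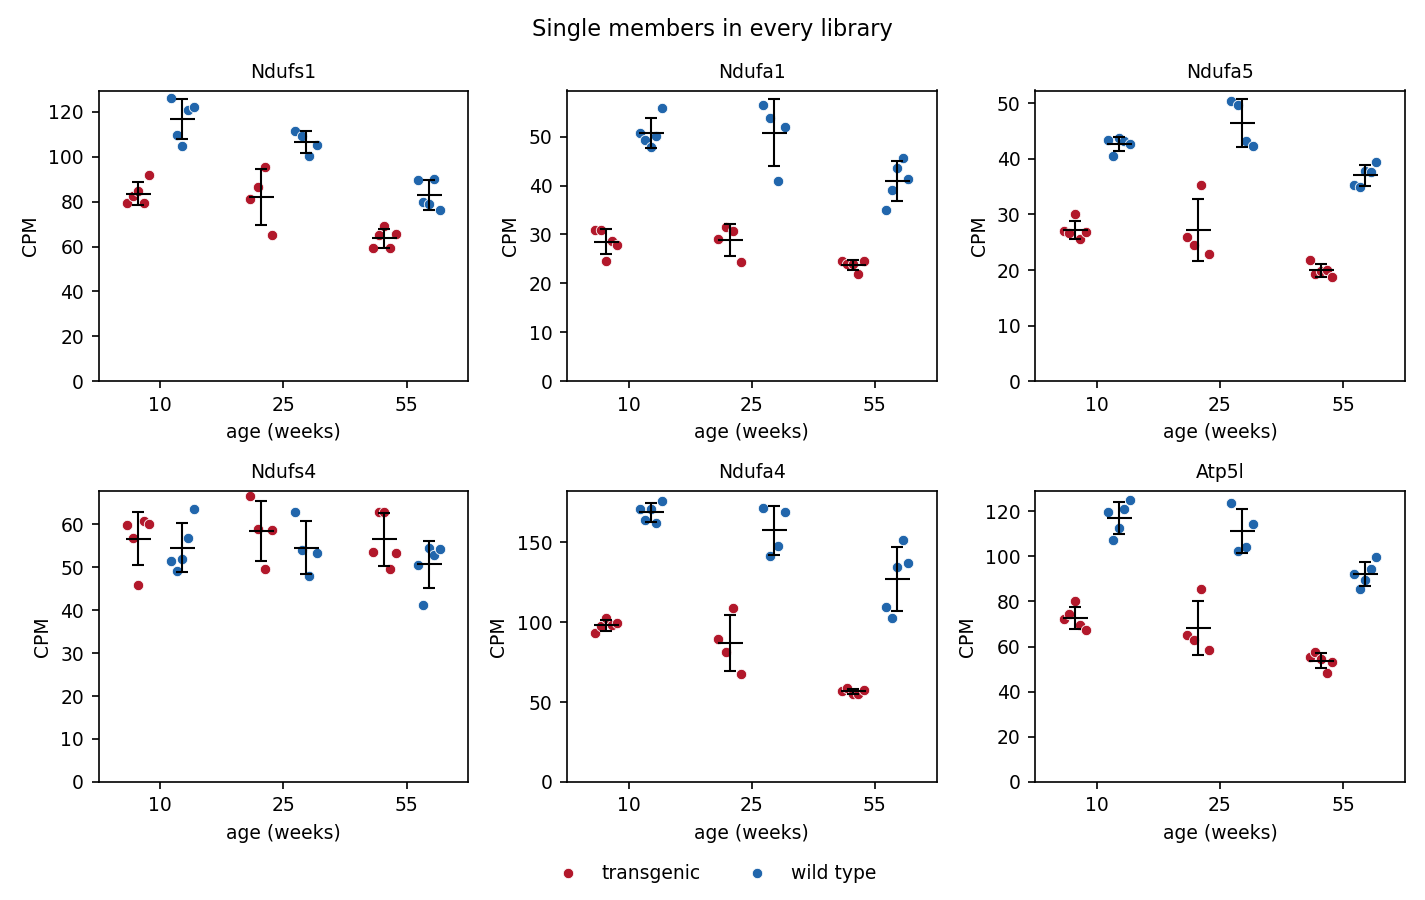
CPM of Ndufs1, Ndufa1, Ndufa5, Ndufs4, Ndufa4 and Atp5l in each of the 28 libraries by age. Points are libraries, transgenic left of wild type, and bars are mean ± SD (n = 5, 4 and 5 a genotype at 10, 25 and 55 weeks). Ndufs4 overlapped between the genotypes at each age, and the other 5 genes did not overlap at any age. With library size alone the 55-week difference of Ndufs1 was 0.02.

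The assembly factors, which help build complex I and are not part of the finished enzyme, were called in a minority at each age. Of the 8, 3 were called lower at 10 weeks, 3 at 25 weeks and 2 at 55 weeks (medians -0.28, -0.38 and -0.18). Among all genes tested 16.2%, 18.6% and 27.6% were called lower at these ages. With library size alone 3, 0 and 0 of the 8 were called lower. Their levels were low, and whether they differ from the subunits was not tested. Ndufaf2, a late assembly chaperone related to the subunit Ndufa12, counted 2.27, 2.64, 3.12, 2.15 and 3.302 CPM in the transgenic libraries, against 4.501, 4.72, 3.44, 4.64 and 4.54 CPM in the wild-type libraries at 10 weeks, without overlap (-0.69, SE 0.15, adjusted p = 9.15e-04, edgeR). It counted 4.36, 2.73, 3.696, 3.43 and 4.13 CPM in the transgenic libraries, against 4.604, 4.29, 4.72, 4.07 and 4.37 CPM in the wild-type libraries at 55 weeks, where the groups overlapped (-0.26, adjusted p = 0.137, edgeR; 0.15 with library size alone). Exons of the long non-coding gene B230220B15Rik cover 65.6% of the exonic length of Ndufaf2, and without strand marking their reads cannot be told apart.

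Ndufaf5, which in human cells hydroxylates an arginine of NDUFS7, counted 3.59, 4.26, 4.28, 3.82 and 4.57 CPM in the transgenic libraries, against 6.41, 5.303, 4.28, 4.85 and 6.299 CPM in the wild-type libraries at 10 weeks. At 25 weeks Ndufaf5 counted 4.63, 3.99, 4.76 and 3.87 CPM in the transgenic libraries, against 5.14, 5.42, 5.69 and 6.09 CPM in the wild-type libraries. At 55 weeks Ndufaf5 counted 5.41, 5.46, 4.35, 5.48 and 5.07 CPM in the transgenic libraries, against 4.45, 4.66, 4.63, 5.03 and 5.29 CPM in the wild-type libraries. It was lower in transgenic mice at 10 and 25 weeks (-0.40 and -0.37, adjusted p = 0.0127 and 0.0334, edgeR), without overlap at 25 weeks, and was not called at 55 weeks (0.10, adjusted p = 0.504). The 25-week call of Ndufaf5 was lost with library size alone, no filter, only the groups compared, the replicate block or library group as a term, and without transgenic replicate 2 or 4 or WT replicate 3 or 4 of that age. Its 10-week call was lost with no filter and with 10-week replicates 4 and 5 left out or alone. Its partner Ndufaf8 was called at 25 weeks only, at -0.58 (adjusted p = 0.00759, edgeR). Ndufaf4 was called at 10 weeks only (-0.79), Ndufaf1 at 55 weeks only (-0.37), and Ndufaf3 at 25 and 55 weeks (-0.42 and -0.32). Ndufaf7, an assembly factor gene, had differences of -0.16, -0.12 and -0.10 (adjusted p = 0.227, 0.427 and 0.38, edgeR), and Ndufaf6 of -0.38, -0.44 and 0.07 (adjusted p = 0.174, 0.145 and 0.808, edgeR).

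Ndufa4, the complex IV-associated member (chr6:11900292-11907497, GRCm38), had the lowest difference of the 62 at 55 weeks. At 10 weeks Ndufa4 counted 93.2, 97.8, 103, 97.99 and 99.2 CPM in the transgenic libraries, against 171, 164, 171, 162 and 176 CPM in the wild-type libraries. At 25 weeks Ndufa4 counted 89.6, 81.5, 109 and 67.7 CPM in the transgenic libraries, against 172, 142, 148 and 169 CPM in the wild-type libraries. At 55 weeks Ndufa4 counted 56.9, 58.9, 55.2, 54.9 and 57.5 CPM in the transgenic libraries, against 109.6, 103, 134, 151 and 137 CPM in the wild-type libraries. Its transgenic libraries lay below all WT libraries at each age, with differences of -0.78, -0.86 and -1.16 (SE 0.10, 0.11 and 0.10, adjusted p = 7.76e-07, 1.26e-06 and 6.65e-11, edgeR quasi-likelihood test), and the mean at 55 weeks was 56.7 ± 1.69 CPM in transgenic and 127 ± 20.2 CPM in wild-type mice (SD, n = 5 each).

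In the catalytic head and central stalk of the ATP synthase, 4 of the 5 genes were called lower at each age (medians -0.33, -0.36 and -0.42; 2, 2 and 0 of the 5 with library size alone), and the gene of the catalytic β subunit was not. Atp5a1, the α subunit gene, counted 750.2, 727, 699, 685 and 720.5 CPM in the transgenic libraries, against 985, 755, 787, 935 and 989.9 CPM in the wild-type libraries at 10 weeks. At 25 weeks Atp5a1 counted 647, 603, 702 and 571 CPM in the transgenic libraries, against 916, 752, 781 and 791 CPM in the wild-type libraries. At 55 weeks Atp5a1 counted 532, 662, 638, 541 and 577 CPM in the transgenic libraries, against 717, 627, 656, 763 and 721 CPM in the wild-type libraries. The genotypes did not overlap at 10 and 25 weeks and overlapped at 55 weeks, and the differences were -0.31, -0.36 and -0.24 (SE 0.10, 0.11 and 0.10, adjusted p = 0.0115, 0.00812 and 0.0309, edgeR). The 55-week call of Atp5a1 was lost without transgenic replicate 1 or 4 or WT replicate 1, 4 or 5 of that age, and the value was 0.15 with library size alone.

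Atp5b, the β subunit gene, counted 1159, 1104, 998, 1013 and 1060 CPM in the transgenic libraries, against 1242, 962, 965, 1135 and 1231 CPM in the wild-type libraries at 10 weeks. At 25 weeks Atp5b counted 1016, 910.4, 1054 and 838 CPM in the transgenic libraries, against 1277, 961, 963 and 983 CPM in the wild-type libraries. At 55 weeks Atp5b counted 685, 857, 838, 722 and 749.6 CPM in the transgenic libraries, against 925, 809, 836, 963 and 888 CPM in the wild-type libraries. Its genotypes overlapped at each age, with differences of -0.05, -0.13 and -0.20 (SE 0.10, 0.12 and 0.10, adjusted p = 0.724, 0.38 and 0.0987, edgeR), which with library size alone stood at 0.03 at 25 weeks and 0.20 at 55 weeks. Atp5b was called lower at 55 weeks by DESeq2 and without transgenic replicate 2 of that age. The mean of Atp5b was 1067 ± 66.4 CPM in transgenic and 1107 ± 138 CPM in wild-type mice at 10 weeks (SD, n = 5 each). Whether Atp5a1 and Atp5b, the 2 genes of the catalytic hexamer, differ in this was not tested. The rotor stalk genes Atp5c1 (γ), Atp5d (δ) and Atp5e (ε) stood at -0.35, -0.24 and -0.42, at -0.33, -0.64 and -0.58 and at -0.43, -0.97 and -0.47 at the 3 ages.

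In the peripheral stalk, which holds the head still, 4, 3 and 4 of the 4 genes were called lower (medians -0.38, -0.41 and -0.48). With library size alone 4, 2 and 1 of the 4 were. Atp5h, the d subunit gene, stood at -0.45, -0.70 and -0.82 (adjusted p = 0.00307, 1.11e-04 and 4.53e-07, edgeR), and Atp5f1, the b subunit gene, was not called at 25 weeks (-0.15, adjusted p = 0.242, edgeR). Atp5o, the gene of the oligomycin sensitivity-conferring subunit, stood at -0.40, -0.60 and -0.46, and 47.9% of its exonic length lies in exons of other annotated genes, the antisense genes Gm15976 and D430001F17Rik among them.

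The small membrane subunits Atp5l (g), Atp5k (e) and Atp5j2 (f) were called lower at each age, with medians of -0.57, -0.73 and -0.78. With library size alone 3, 3 and 2 of the 3 were. Atp5l, which with Atp5k joins ATP synthases into the dimers that bend the inner membrane, counted 71.98, 74.3, 80.05, 69.4 and 67.2 CPM in the transgenic libraries, against 119.8, 107, 112, 121 and 125 CPM in the wild-type libraries at 10 weeks. At 25 weeks Atp5l counted 65.2, 62.9, 85.6 and 58.6 CPM in the transgenic libraries, against 123, 102, 104 and 114 CPM in the wild-type libraries. At 55 weeks Atp5l counted 55.2, 57.6, 54.5, 48.3 and 53.1 CPM in the transgenic libraries, against 92.3, 85.6, 89.5, 94.4 and 99.9 CPM in the wild-type libraries. There was no overlap at any age, and Atp5l differed by -0.69, -0.71 and -0.78 (SE 0.09, 0.10 and 0.09, adjusted p = 5.33e-07, 2.47e-06 and 8.39e-09, edgeR). Of the ATP synthase-named genes outside the enzyme, Atp5sl, which in human cells takes part in building the membrane arm of complex I, stood at -0.68, -0.85 and -1.09 (adjusted p = 1.17e-04, 3.01e-05 and 1.37e-08, edgeR), and Atp5s was called at 10 and 55 weeks (-0.85 and -0.87).

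The 3 c-subunit genes encode the same mature protein behind different targeting peptides, and their shares of the summed level are given after their values. Atp5g1 counted 178, 161, 149, 149 and 149.7 CPM in the transgenic libraries, against 218, 209.5, 219, 182 and 223 CPM in the wild-type libraries at 10 weeks. At 25 weeks Atp5g1 counted 104, 84.6, 162 and 96.2 CPM in the transgenic libraries, against 233, 145, 187 and 202 CPM in the wild-type libraries. At 55 weeks Atp5g1 counted 82.9, 88.6, 92.5, 72.8 and 72.9 CPM in the transgenic libraries, against 119, 118, 154, 165 and 166 CPM in the wild-type libraries. Transgenic replicate 3 of 25 weeks lay within the WT range, the other ages did not overlap, and Atp5g1 differed by -0.42, -0.78 and -0.82 (SE 0.14, 0.16 and 0.14, adjusted p = 0.0202, 2.73e-04 and 1.06e-05, edgeR).

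Atp5g3, the most counted of the 3, stood at 162 ± 10.9 CPM in transgenic and 211 ± 22.6 CPM in WT mice at 55 weeks. Its libraries were 219.6, 215, 219, 226 and 229.5 CPM in the transgenic libraries, against 309.6, 245, 270.1, 297 and 311 CPM in the wild-type libraries at 10 weeks. At 25 weeks Atp5g3 counted 188, 166, 219.6 and 175 CPM in the transgenic libraries, against 281, 225, 247 and 262 CPM in the wild-type libraries. At 55 weeks Atp5g3 counted 149.7, 171, 172, 151 and 166 CPM in the transgenic libraries, against 221, 173, 209.8, 231 and 223 CPM in the wild-type libraries. The genotypes did not overlap, and the differences were -0.37, -0.44 and -0.39 (adjusted p = 0.00254, 0.00128 and 6.17e-04, edgeR), with 0.01 at 55 weeks under library size alone.

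Atp5g2 counted 45.8, 42.99, 47.9, 40.7 and 44.2 CPM in the transgenic libraries, against 54.2, 51.3, 49.9, 52.2 and 57.1 CPM in the wild-type libraries at 10 weeks. At 25 weeks Atp5g2 counted 33.3, 32.2, 52.9 and 30.8 CPM in the transgenic libraries, against 57.6, 47.9, 52.9 and 50.2 CPM in the wild-type libraries. At 55 weeks Atp5g2 counted 47.1, 51.98, 51.3, 43.03 and 43.2 CPM in the transgenic libraries, against 42.99, 38.6, 47.7, 51.1 and 47.3 CPM in the wild-type libraries. At 25 weeks 3 transgenic libraries lay below all WT libraries and replicate 3 lay within the WT range, and at 55 weeks the genotypes overlapped. The Atp5g2 differences were -0.26, -0.48 and 0.05 (SE 0.11, 0.12 and 0.11, adjusted p = 0.0696, 0.00266 and 0.689, edgeR), and at 55 weeks the value was 0.45 (adjusted p = 0.00133) with library size alone. The 10-week difference of Atp5g2 was called without transgenic replicate 3 of 10 weeks, 3 or 4 of 25 weeks, or 2, 3 or 5 of 55 weeks. It was also called with mitochondrially encoded rows left out and with only the groups compared. Of the 75-base runs of Atp5g2 transcripts, 35.8% also occur in other genes, the pseudogene Gm10175 first among them. For Atp5g1 it is 7.21%, with Gm10039 first among them. Part of the reads of these genes may thus be lost or counted for other genes, and the shares below carry the same limit.

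As a share of the summed CPM of the 3 genes, which no scaling between libraries alters, Atp5g2 made up 16.3% ± 0.591 in transgenic and 11.4% ± 0.335 in WT mice at 55 weeks (SD, n = 5 each). The transgenic shares lay between 15.3% and 16.8% and the WT shares between 10.9% and 11.7%. At 10 weeks the Atp5g2 share was 10.5% ± 0.629 in transgenic and 9.64% ± 0.369 in WT mice. Atp5g1 made up 28.1% ± 1.55 in transgenic and 35.8% ± 2.76 in WT mice at 55 weeks, without overlap, and 37.1% ± 2.09 in transgenic and 38.3% ± 2.85 in WT mice at 10 weeks. Atp5g3 made up 55.7% ± 2.09 in transgenic and 52.8% ± 2.78 in WT mice at 55 weeks.

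**Figure D4:**
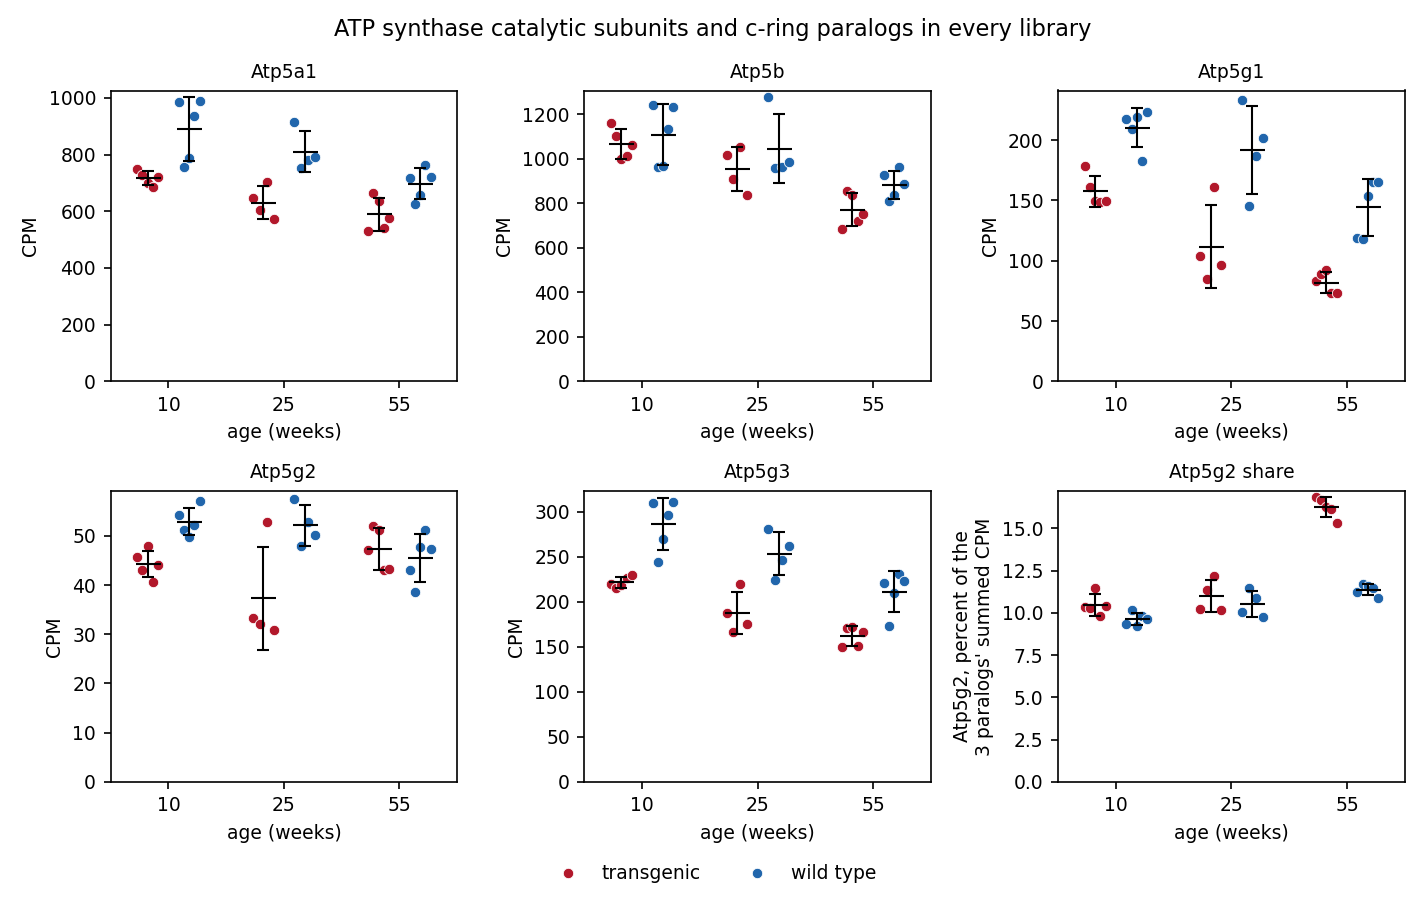
CPM of the catalytic subunit genes Atp5a1 and Atp5b and of the c-subunit genes Atp5g1, Atp5g2 and Atp5g3, and the percent of the 3 c-subunit genes' summed CPM that was Atp5g2, in each library by age. Points are libraries, transgenic left of wild type, and bars are mean ± SD. The Atp5g2 share separates the genotypes at 55 weeks, between 15.3% and 16.8% in transgenic mice and between 10.9% and 11.7% in wild-type mice. With library size alone the 55-week differences of Atp5a1, Atp5b and Atp5g3 and the 25-week difference of Atp5b lay above 0.

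Levels can be set against each other per kilobase of exon, with all annotated exons of a gene's transcripts joined into 1 length. Such lengths, 4237 bases for Atp5b and 3135 for Atp5a1, can exceed that of the RNA present. The order therefore depends on the annotation. By this measure the highest members in WT mice at 10 weeks were Atp5a1 with 284 CPM per kb, Atp5b with 261, Ndufb9 with 171, Atp5d with 144 and Atp5g3 with 131. In transgenic mice at 55 weeks the order was Atp5a1 with 188 CPM per kb, Atp5b with 182, Atp5d with 86.2, Atp5g3 with 74.2, Atp5c1 with 70.9 and Ndufb9 with 67.4. The α and β subunit genes led in both groups, and Ndufb9 had rank 6 in the transgenic group of 55 weeks and rank 3 in the WT group of 10 weeks. The log2 differences of the members had Spearman correlations with exonic length of 0.10, 0.26 and 0.09 at the 3 ages (n = 62 genes, which share the libraries). Of the members, 41 had exonic lengths up to 2406 bases, where the median differences were -0.41, -0.60 and -0.53 for members, against -0.06, -0.14 and -0.05 for all genes.

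Whether the genotype difference itself changed with age was tested as a contrast of contrasts. Between 10 and 25 weeks 0 members changed (2 at an unadjusted p under 0.05; 0 by DESeq2), as did 0.00632% of all genes. Between 10 and 55 weeks 6 members passed the test, against 36.4% of all genes tested: the difference was deeper at 55 weeks for Ndufa4, Ndufb9, Ndufb10 and Ndufv3, and shallower for Ndufaf5 and Ndufc2. The changes were -0.46 for Ndufb10 (SE 0.16, adjusted p = 0.0246), -0.36 for Ndufv3 (adjusted p = 0.0289), and 0.49 for Ndufaf5 (SE 0.17, adjusted p = 0.0238, edgeR). Ndufc2, a membrane-arm subunit, averaged 24.7 ± 2.23 CPM in transgenic and 37.9 ± 1.203 CPM in wild-type mice at 10 weeks and 24.01 ± 1.25 CPM in transgenic and 28.99 ± 2.37 CPM in wild-type mice at 55 weeks (SD, n = 5 each).

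These 6 calls rested on few libraries. The count was 1 without WT replicate 2 of 10 weeks, 2 without WT replicate 3 of 10 weeks or transgenic replicate 5 of 55 weeks, and 3 without transgenic replicate 1 of 10 weeks or WT replicate 4 of 55 weeks. It was 11 without transgenic replicate 3 of 25 weeks and 10 without WT replicate 5 of 10 weeks or WT replicate 1 of 25 weeks. The column names also sort the libraries into 2 library groups. Within the second, made up of the 55-week libraries and of 10-week replicates 4 and 5, 0 members passed this test, against 22.5% of all genes.

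From 25 to 55 weeks 2 members changed, both shallower at 55 weeks, against 28.9% of all genes tested. They were Atp5g2 (0.54, SE 0.16, adjusted p = 0.0138) and the matrix-arm subunit Ndufa2 (0.76, SE 0.29, adjusted p = 0.0456, edgeR). At 25 weeks Ndufa2 counted 14.9, 14.03, 31.2 and 16.2 CPM in the transgenic libraries, against 45.01, 25.00, 36.97 and 48.03 CPM in the wild-type libraries. At 55 weeks Ndufa2 counted 27.9, 25.6, 27.4, 21.9 and 20.2 CPM in the transgenic libraries, against 20.4, 22.4, 32.5, 35.4 and 36.4 CPM in the wild-type libraries. The Ndufa2 groups overlapped at both ages, at 25 weeks through transgenic replicate 3, and the 55-week difference of -0.26 was 0.14 with library size alone. Without that library 9 members passed, without WT replicate 2 of 25 weeks 7, and without WT replicate 5 of 55 weeks 5, and leaving out each of 14 other libraries gave 1. The 25-week and 55-week libraries lie in different library groups, apart from 1 WT library tagged as a replacement, so this change and the library group cannot be told apart.

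Within WT mice, 55 weeks against 10 weeks, 26 members were called lower and 0 higher, against 6.26% and 6.43% of all genes tested (median of members -0.29, of all genes 0.00). Ndufs1 had the lowest adjusted p (-0.49, SE 0.09, adjusted p = 4.65e-04, edgeR), followed by Atp5g3 (-0.44, adjusted p = 0.00244). Ndufb6, a membrane-arm subunit, counted 32.5, 24.2, 33.5, 35.4 and 35.3 CPM in WT libraries of 55 weeks, against 50.4, 38.8, 46.3, 47.8 and 46.95 CPM in WT libraries of 10 weeks (-0.52, adjusted p = 0.00324, edgeR). All 55-week values of Ndufb6 lay below all 10-week values, and replicate 2 of 55 weeks was lowest. The calls were spread over the roles, with 4 of 7 core, 2 of 9 accessory matrix-arm and 12 of 20 membrane-arm genes of complex I, and 6 of 15 ATP synthase genes. Within the second library group 10 members were lower (median -0.34), against 1.5% of all genes called, and the count was 16 without WT replicate 2 of 55 weeks. Of the parietal markers 16 of 19 were lower in the same comparison (median -0.76), 2 of 8 chief cell genes were lower and 6 of 11 leukocyte genes higher, and their part in the members' change was not tested. At 25 against 10 weeks 0 WT members were called (0 at an unadjusted p under 0.05; 0 by DESeq2), as were 0.0126% of all genes.

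In transgenic mice, 55 weeks against 10 weeks, 46 members were called lower and 2 higher, against 24.5% and 27.2% of all genes tested (median of members -0.40, of all genes 0.02; with library size alone 0.02 and 0.44). Ndufb9 had the lowest adjusted p, -0.82 (adjusted p = 8.12e-08, edgeR), followed by Ndufa4 (-0.79) and Ndufa6 (-0.74). Ndufa6 counted 40.3, 45.9, 44.4, 36.2 and 36.1 CPM in transgenic libraries of 55 weeks, against 77.3, 64.2, 64.5, 67.4 and 65.7 CPM in those of 10 weeks, without overlap. The members called higher at 55 weeks were the assembly factor genes Ndufaf2 (0.45, adjusted p = 0.013) and Ndufaf5 (0.33, adjusted p = 0.0228, edgeR). Within the second library group 35 members were lower (median -0.35), against 41.8% of all genes called. In this comparison 17 of 19 parietal markers (median -2.42), 8 of 8 chief cell genes and 8 of 10 pit cell genes were lower and 11 of 11 leukocyte genes higher, and their part in the members' change was not tested. At 25 against 10 weeks 0 transgenic members were called in the test over all genes (20 at an unadjusted p under 0.05; 6 by DESeq2), against 0.822% lower and 1.99% higher (2.81% in all) of all genes, and 24 without transgenic replicate 3 of 25 weeks.

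The other respiratory chain genes are given for comparison, beside the 16.2%, 18.6% and 27.6% of all genes called lower at the 3 ages, and no difference between the lists was tested. Of 8 complex II genes 3, 6 and 3 were called lower at the 3 ages (medians -0.28, -0.47 and -0.23), among them the iron-sulfur subunit gene Sdhb at -0.33, -0.53 and -0.66 and the membrane anchor gene Sdhc at -0.11, -0.42 and -0.51. Of 14 complex III genes 9, 8 and 11 were called lower (medians -0.37, -0.49 and -0.45), among them the hinge protein gene Uqcrh at -0.59, -0.67 and -0.83 and Uqcrb at -0.29, -0.03 and -0.95. Of 27 complex IV genes 12, 17 and 17 were called lower and 3, 3 and 1 higher (medians -0.28, -0.47 and -0.47). Cox7a1, a subunit isoform best known from muscle, stood at 0.607 ± 0.181 CPM in transgenic and 11.9 ± 4.47 CPM in wild-type mice at 55 weeks (-4.28, adjusted p = 2.21e-11, edgeR). Cox7b stood at -0.89, -0.96 and -0.94. Of 13 other assembly genes of complex I and the ATP synthase 3, 3 and 5 were called lower and 0, 1 and 2 higher. Atpif1, the inhibitor that stops the ATP synthase from running backwards, was at -0.22, -0.26 and -0.67, and Acad9, a complex I assembly factor, at 0.05, 0.07 and 0.45 (adjusted p = 1.81e-05 at 55 weeks, edgeR).

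Among 16 regulators of mitochondrial biogenesis, 5, 6 and 7 were called lower and 3, 4 and 2 higher. Esrrg, an estrogen-related receptor that in parietal cells is known to drive energy metabolism genes, differed by -0.67, -0.23 and -4.71 (adjusted p = 0.0256, 0.504 and 1.1e-13, edgeR). Ppargc1a, the coactivator PGC-1α, differed by -0.75, -0.10 and -2.08 (adjusted p = 0.00108, 0.697 and 1.05e-10, edgeR). Their part in the members' differences was not tested. Esrra stood at -0.09, -0.31 and -0.46, and Nrf1 at 0.51, 0.29 and 0.15.

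**Figure D5:**
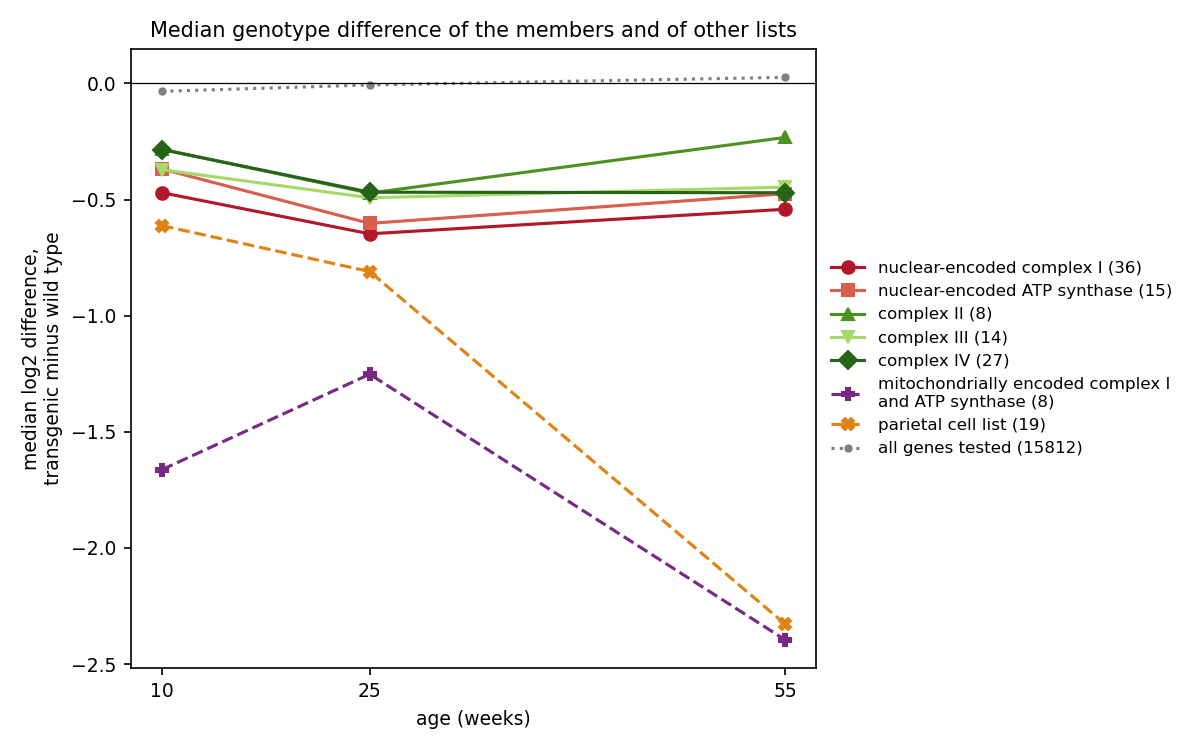
Median log2 difference, transgenic minus wild type, by age for nuclear-encoded complex I (36 genes) and ATP synthase (15), complexes II (8), III (14) and IV (27), the mitochondrially encoded subunits (8), a parietal cell list (19) and all genes tested. The nuclear-encoded lists lay between -0.23 and -0.65 at each age, while the parietal list reached -2.33 and the mitochondrially encoded list -2.40 at 55 weeks. With library size alone the median of all genes at 55 weeks lay at 0.43.

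The mitochondrially encoded subunits of the same enzymes, of which 8 were tested, were called lower in 6, 4 and 6 cases (medians -1.66, -1.25 and -2.40). Their summed level in transgenic libraries lay between 6071 and 19848 CPM at 10 weeks, 14771 and 23858 CPM at 25 weeks, and 5900 and 13125 CPM at 55 weeks. In WT libraries it lay between 19689 and 51523 CPM, 20985 and 68944 CPM, and 26283 and 91193 CPM at those ages. The membrane-arm core gene mt-Nd4 differed by -1.64, -1.52 and -2.30 and mt-Nd5 by -1.59, -1.34 and -2.58. The share of all counts from mitochondrially encoded genes was 3.04% ± 1.25 in transgenic and 8.55% ± 2.78 in WT mice at 10 weeks, 5.004% ± 0.908 in transgenic and 10.5% ± 3.79 in WT mice at 25 weeks, and 3.24% ± 1.299 in transgenic and 11.9% ± 5.47 in WT mice at 55 weeks. The part of the mitochondrial share in the members' differences was not tested; with these rows left out 52 members were called lower at 55 weeks as before.

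Of 19 parietal cell markers 13, 14 and 15 were called lower and 1 higher at each age (medians -0.61, -0.81 and -2.33). Their genotype difference deepened from 10 to 55 weeks in 15 of the 19 and became shallower in 2 (median change -1.71), against 4 members deeper and 2 shallower of the 62. The summed level of the list in transgenic libraries lay between 15671 and 18238 CPM at 10 weeks, 9831 and 15759 CPM at 25 weeks, and 2975 and 4522 CPM at 55 weeks. In WT libraries it lay between 21094 and 23359 CPM, 17336 and 23956 CPM, and 10871 and 14955 CPM. Atp4a, the pump's catalytic subunit, stood at 6589 ± 582 CPM in transgenic and 10715 ± 649 CPM in wild-type mice at 10 weeks, at 4223 ± 1384 CPM in transgenic and 8689 ± 2118 CPM in wild-type mice at 25 weeks and at 185 ± 89.4 CPM in transgenic and 4874 ± 1196 CPM in wild-type mice at 55 weeks (SD). Its log2 differences were -0.70, -1.04 and -4.72 (adjusted p = 0.0257, 0.00347 and 2.55e-14, edgeR), and those of Atp4b were -0.74, -1.02 and -4.84. The members' summed level was 21.5%, 27.5% and 26.99% lower at the same ages with TMM scaling. The part of the parietal cell list in the members' differences was not tested.

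Markers of other cells moved as well. Chief cell genes had medians of -0.78, -1.17 and -5.52, with 4, 5 and 8 of 8 called lower, and endocrine cell genes -0.76, -0.69 and -3.58 (4, 5 and 7 of 8 lower). Of 10 pit cell genes 0, 1 and 8 were called lower and 2, 1 and 2 higher (medians 0.16, -0.17 and -1.93). Of 7 mucous neck cell genes 0, 0 and 2 were called lower and 4, 4 and 4 higher (medians 0.68, 0.92 and 1.57). Leukocyte genes were higher in 1, 1 and 10 of 11, with summed levels between 95.7 and 201.5 CPM in transgenic and 56.3 and 62.8 CPM in WT libraries of 55 weeks. Of 6 squamous forestomach genes 2, 0 and 1 were called lower and 0, 1 and 3 higher (medians -2.22, 0.16 and 1.43). Of 4 erythroid genes 2, 4 and 4 were called lower (medians -0.91, -1.74 and -2.64), and of 7 smooth muscle genes 0, 0 and 3. Of 6 endothelial genes 0, 1 and 2 were called lower and 1, 1 and 2 higher. Their part in the members' differences was not tested.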

How the data were processed

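Polyadenylated RNA of 28 libraries was sequenced as paired reads of 75 bases from libraries without strand marking, per the labels' protocols. The authors deposited raw read counts per gene symbol, and the submitters' processing notes name TopHat2 (2.0.14), HTSeq (0.6.1), DESeq2 and the build mm10. Which annotation and strand setting the counting used is not given in the sources used here. Reads carry no molecular identifiers, and the total count of a library sets its precision.

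A filter on low counts (filterByExpr by group) kept 15812 of 49492 genes, and TMM gave the scaling. All 28 libraries entered 1 robust fit of edgeR (4.0.16, R 4.3.3) with 6 group means, tested two-sided by quasi-likelihood. In each of 10 contrasts p-values were adjusted over all genes tested, and a call is an adjusted p under 0.05. The script was tested on simulated data with known changes. CPM values use TMM-scaled library sizes. Alternatives were DESeq2 (1.42.0), other scalings and filters, a replicate block, library groups and leaving out each library. Gene positions and overlaps are from GENCODE M21 (GRCm38), and the motif letters searched are textbook consensus letters.

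1 member is counted in the totals and not reported here by name. Members were chosen by symbol, and members and lists were chosen with earlier results of these data known. Library values, at some or all ages, are given for the 3 members with the lowest adjusted p in each genotype comparison and each change between ages, the core subunits with the highest and lowest difference, the α, β and c subunits of the ATP synthase, and members called in opposite directions. Same-numbered replicates were not treated as pairs: of 14 pairs 3, all of 10 weeks, correlated above 0.1 in their deviations from the group means (-0.42 to 0.23). WT replicates 2 and 3 of 10 weeks were alike (chi-square per degree of freedom 3.95, against 13.8 to 150.5 in other pairs), above sampling noise, and were kept as separate samples. That libraries come from separate mice is inferred from the labels; p-values measure the spread between them.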

Additional observations from a re-analysis of the deposited data

Results flagged for a closer look

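In 126 groups checked (21 members in 6 groups), 11 held a library far from the others, and chance alone flags about 1 in 20 groups. Transgenic replicate 3 of 25 weeks accounted for 4: it was the highest of its group for Atp5g2 (52.9 CPM, others 30.8 to 33.3), Ndufa2 (31.2 CPM, others 14.03 to 16.2), Ndufs7 (71.2 CPM, others 36.6 to 40.4) and Ndufv1 (80.9 CPM, others 57.04 to 60.9). WT replicate 1 of 25 weeks was the highest of its group for Atp5b (1277 CPM, others 960.6 to 983) and Ndufv3 (94.4 CPM, others 70.1 to 72.8). Both of these libraries are also those whose summed level of the members stood apart. Ndufv3 was highest in WT replicate 5 of 10 weeks (86.9 CPM, others 69.2 to 74.1), and Ndufa6 in transgenic replicate 1 of 10 weeks (77.3 CPM, others 64.2 to 67.4). Ndufaf2 was lowest in WT replicate 3 of 10 weeks (3.44 CPM, others 4.501 to 4.72), Ndufb6 in WT replicate 2 of 55 weeks (24.2 CPM, others 32.5 to 35.4), and Ndufa1 in transgenic replicate 4 of 55 weeks (21.98 CPM, others 23.95 to 24.6).

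For 8 members the genotype difference itself differed between ages in the edgeR test of the contrast. From 10 to 55 weeks the log2 change was -0.38 for Ndufa4, 0.49 for Ndufaf5, -0.46 for Ndufb10, -0.38 for Ndufb9, 0.34 for Ndufc2 and -0.36 for Ndufv3, and the adjusted p lay between 0.0238 and 0.0371. From 25 to 55 weeks it was 0.54 for Atp5g2 (adjusted p = 0.0139, edgeR) and 0.76 for Ndufa2 (adjusted p = 0.0456, edgeR). No explanation of these values was tested.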

How the results depend on the processing

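The genotype counts of 52, 52 and 52 members lower stayed within 1.5 times under each alternative except these: at 10 weeks 31 without replicates 4 and 5 and 25 with those replicates alone, and at 55 weeks 23 calls in either direction with library size alone. Leaving out each library gave 48 to 54, 49 to 55 and 50 to 53. The change from 10 to 55 weeks (6) was 16 with library size alone, 3 with no filter, 14 with only the groups compared and, as an alternative chosen after seeing the data, 0 in the second library group, and leaving out each library gave 1 to 11. The change from 25 to 55 weeks (2) was 9 with library size alone, 1 with no filter and 1 with only the groups compared, and leave-one-out gave 1 to 9. That from 10 to 25 weeks stayed at 0 in each leave-one-out fit. WT mice of 55 against 10 weeks (26) gave 13 with library size alone, 16 without 10-week replicates 4 and 5 and, both chosen after seeing the data, 11 with library group as a term and 10 in the second library group, and leave-one-out gave 16 to 33. Transgenic mice of 25 against 10 weeks (0) gave 2 with library size alone, 6 with DESeq2 and 1 with only the groups compared, and leave-one-out gave 0 to 24; 55 against 10 weeks (48) gave 13 with library size alone and 43 to 49. The cause of these shifts was not tested. Same-numbered replicates were not treated as pairs in the main fit. With the replicate block the genotype counts were 49, 49 and 50. The changes from 10 to 55 and from 25 to 55 weeks then each gave 1. Among the 21 members named by rule, 2377 values kept direction and side of the threshold, 90 lost the call, 14 gained it and 10 changed sign. With library size alone the 55-week differences became 0.154 for Atp5a1, 0.196 for Atp5b, 0.00972 for Atp5g3, 0.1445 for Ndufa2, 0.153 for Ndufaf2 and 0.0188 for Ndufs1, and the 25-week ones 0.0276 for Atp5b and 0.0342 for Ndufaf2. Atp5b at 10 weeks was 0.0178 without replicates 4 and 5, and Atp5g2 at 55 weeks ranged between -4.57e-05 (without WT replicate 2) and 0.1001 when each library was left out. Depth limits the genes of few counts, such as Ndufaf6 and Atp5s.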
